A study of Homo sapiens with 24 samples.

Results

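The genes that tell 2 lung cancer lines from 2 leukaemia lines were sought in total RNA sequenced from the lines A549, H1299, K562 and THP-1. The 12 libraries labelled control were used, 3 per line, of 24 in the series, and the other 12 libraries, labelled CBX7 knockdown, served as a repeat. A549 came from an adenocarcinoma of the lung and H1299 from a lymph node metastasis of non-small-cell lung cancer. K562 came from chronic myeloid leukaemia in blast crisis and can make haemoglobin, and THP-1 grew out of monocytic leukaemia. The protocol describes lentiviral short hairpin RNA against CBX7, a chromodomain subunit of a Polycomb complex, or a control hairpin, so the controls carry a lentivirus too. A treatment field naming an siRNA against CBX7 stands on the controls as well. Growth conditions are given only as standard. Each side is represented by 2 established cancer lines, so tissue of origin, tumour type, growth attached or in suspension and the history of each line cannot be told apart.

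As background, epithelial cells hold on to a basement membrane through integrins and to each other through tight junctions and desmosomes, and their spread on a firm surface keeps the coactivators YAP and TAZ in the nucleus with TEAD factors. Blood cells do not form such sheets. They carry the phosphatase CD45 and other leukocyte surface proteins, move with their own set of actin regulators, and take their identity from transcription factors such as IKZF1, SPI1, MYB and LMO2.

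Library totals ran from 75278732 to 132499841 estimated counts, with 14340 to 15690 genes above 0. Levels are given as CPM, estimated counts relative to a scaled library size, and 12 counts in a library, or 0.0875 to 0.154 CPM, were taken as the floor below which a gene was not distinguished from 0. CBX7 went against the labels. Its level in the libraries labelled control was 6.08 ± 0.46 CPM in A549, 29.9 ± 0.76 CPM in H1299, 12.8 ± 0.91 CPM in K562 and 16.4 ± 1.79 CPM in THP-1 (mean ± SD, n = 3 each, as for all such values below). In the libraries labelled knockdown it was 54.4 ± 1.09, 388.8 ± 11.7, 38.3 ± 0.36 and 39.0 ± 4.02 CPM in the same order. Which arm received the CBX7 hairpin therefore cannot be told from these data, and "labelled control" is used for the label alone. Between the sides the difference of CBX7 in the libraries labelled control did not pass the test (log2 difference -0.11 ± 0.06 SE, adjusted p = 0.152 by edgeR's quasi-likelihood test), and H1299 lay above both leukaemia lines, A549 below them. In the libraries labelled knockdown its difference was 1.91.

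Blood markers followed the labels, lung markers did not. The median of 8 blood markers was 171.9 to 186.6 CPM in K562 libraries and 366.9 to 388.1 CPM in those of THP-1, and no lung library exceeded 0.478 CPM. Erythroid markers had medians of 171.8 to 203.7 CPM in K562, and monocyte markers of 84.1 to 95.4 CPM in THP-1. Alveolar and airway markers were near 0 in the lung lines, with medians of at most 0.0439 CPM and with the surfactant gene SFTPA1 and the club cell gene SCGB1A1 at 0 in A549 and H1299. Epithelial markers did not follow the sides, since their median was 71.9 to 72.5 CPM in A549, 2.20 to 2.49 CPM in H1299, 19.1 to 23.4 CPM in K562 and no more than 0.0704 CPM in THP-1, where EPCAM, CDH1, KRT19 and KRT7 were at 0.

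On the contrast of the mean of the lung lines with the mean of the leukaemia lines, 6879 of 16305 genes tested were called higher in lung (42.2%) and 6029 higher in leukaemia (37.0%), at an adjusted p under 0.05 by the same test with Benjamini-Hochberg adjustment. The median log2 difference over all genes was 0.08. Since 79.2% of genes were called, a call on this contrast alone says little. Single pairs of lines were no more selective, with 80.1% of genes called between A549 and K562, 80.2% between A549 and THP-1, 78.9% between H1299 and K562 and 80.9% between H1299 and THP-1. HOXA10, named after its values were seen, shows why. Its level was 7.87 ± 0.21 CPM in A549, 6.79 ± 0.26 CPM in H1299, 0 in K562 and 61.3 ± 1.05 CPM in THP-1, yet the contrast called it higher in lung (adjusted p = 2.89e-10). These p-values compare the libraries of 4 lines. The labels do not say that replicates were separate cultures, so the spread may be technical, and over lines an exact permutation test of 2 against 2 cannot give a two-sided p below 0.3333. RNA of a whole culture was measured, so fewer cells with a transcript and less of it per cell cannot be told apart.

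The first principal component, with 42.1% of the variance, set the lung libraries apart from the leukaemia libraries. The second, with 32.6%, set K562 apart from THP-1, and the third, with 21.5%, A549 from H1299. Lines of a side were thus far apart themselves. Across 16305 genes Pearson's r of mean log2 levels was 0.783 for A549 with H1299 and 0.738 for K562 with THP-1, against 0.739 for H1299 with K562, 0.705 for H1299 with THP-1, 0.681 for A549 with K562 and 0.675 for A549 with THP-1. H1299 was as near to K562 as K562 was to THP-1 on this measure. Genes are not independent replicates, and these values are descriptions.

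**Figure D1:**
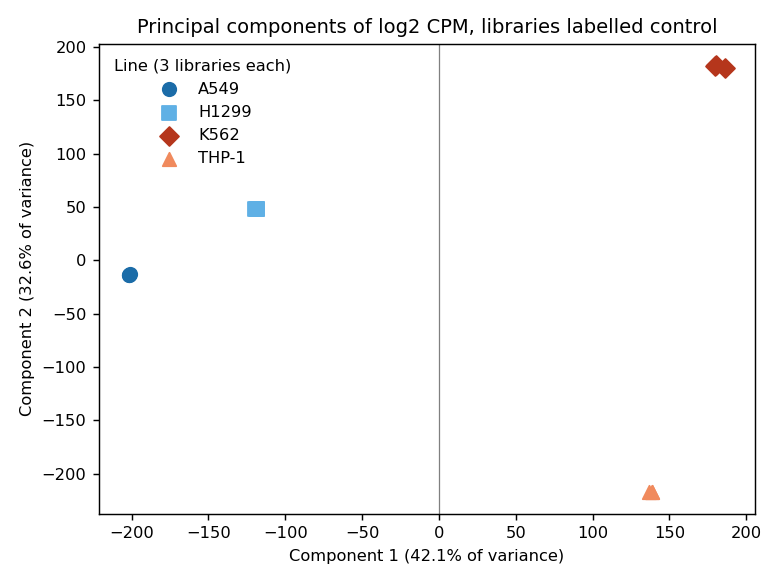
Each point is a library labelled control on the first (x) and second (y) principal component of log2 CPM, in units of component score. Libraries of a line lie close together, the lung lines on the left and the leukaemia lines on the right, with K562 and THP-1 at opposite ends of the second component.

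A gene was therefore taken to separate the sides only where each of the 4 comparisons of a lung line with a leukaemia line was called in the same direction and reached 2-fold. This left 1453 genes higher in both lung lines (8.91% of genes tested) and 669 higher in both leukaemia lines (4.10%). The gap of a gene is the smallest of its 4 differences, that is, between the nearest lines of the sides. On the log2 scale the median gap of separating genes was 2.91 for lung and 2.23 for leukaemia. At the limit itself, ALDH1A3 at 1.0001 and ZNF132 at 1.0019 were inside, PMEL at 0.9971 and GLYR1 at 0.9999 outside. All 6 libraries of one side lay above all 6 of the other for 1385 and 644 of these genes, against 16.0% and 12.9% of all genes tested in the respective direction. The rule for separating genes largely fixes this in advance, so it is no separate support. Where a side is at 0 a fitted difference depends on the fit. With levels under the floor set to the floor, line means were still 2-fold apart for 1288 and 614 genes, while 64 and 32 genes had a line of the high side under the floor. For 366 and 181 genes the lines of the high side differed from each other by more than the nearest lines of the sides did.

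Higher in both lung lines. TM4SF18 and TM4SF1, which encode membrane proteins of 1 family, were both among the 15 genes with the widest gap and at least 20 CPM in both lung lines. TM4SF1 was at 383.1, 483.8 and 573.8 CPM (lowest, median and highest of 6 lung libraries) and at 0, 0.107 and 0.251 CPM in the leukaemia libraries. Its nearest lines were at least 2960-fold apart (adjusted p = 1.22e-10). TM4SF18 was at 26.7, 30.3 and 88.8 CPM and at 0 in all 6 leukaemia libraries, at least 204.2-fold (adjusted p = 5.82e-06). Of its lung libraries A549 replicate 1 stood out at 88.8 CPM, the other A549 libraries being at 33.7 and 32.3 CPM.

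SOX9, a transcription factor of branching lung epithelium and of cartilage, was at 73.5, 82.3 and 91.2 CPM in the lung libraries and at 0, 0 and 0.0463 CPM in the leukaemia libraries, at least 553.2-fold higher (adjusted p = 9.54e-11). UCHL1, a deubiquitinase abundant in neurons and neuroendocrine cells, was at 567.8, 671.9 and 792.1 CPM against 0, 0.105 and 0.250 CPM. Its lung libraries exceeded the leukaemia ones throughout, and the nearest lines differed 3214-fold. F2RL1, the protease-activated receptor PAR-2, was at 98.8, 146.4 and 196.4 CPM against 0, 0 and 0.111 CPM, at least 741.4-fold.

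CLDN1, a tight junction claudin, KRT80, a keratin, and RIPK4, a kinase of epidermal differentiation, were at least 293.6-fold, 487.6-fold and 174.4-fold higher between the nearest lines. SLIT3, a guidance ligand, DPYSL3, a collapsin response protein of growth cones, and PCSK1N, an inhibitor of a prohormone convertase, were at least 380.0-fold, 519.6-fold and 244.5-fold higher. GALNT13, a transferase that starts mucin-type glycans, and RAB34, a small GTPase of ciliogenesis, were at least 184.0-fold and 704.6-fold higher. PEG10, an imprinted gene of retrotransposon origin, was 1631-fold higher, although its level varied within H1299 from 124.6 CPM in replicate 1 to 339.5 and 331.2 CPM in replicates 2 and 3.

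**Figure D2:**
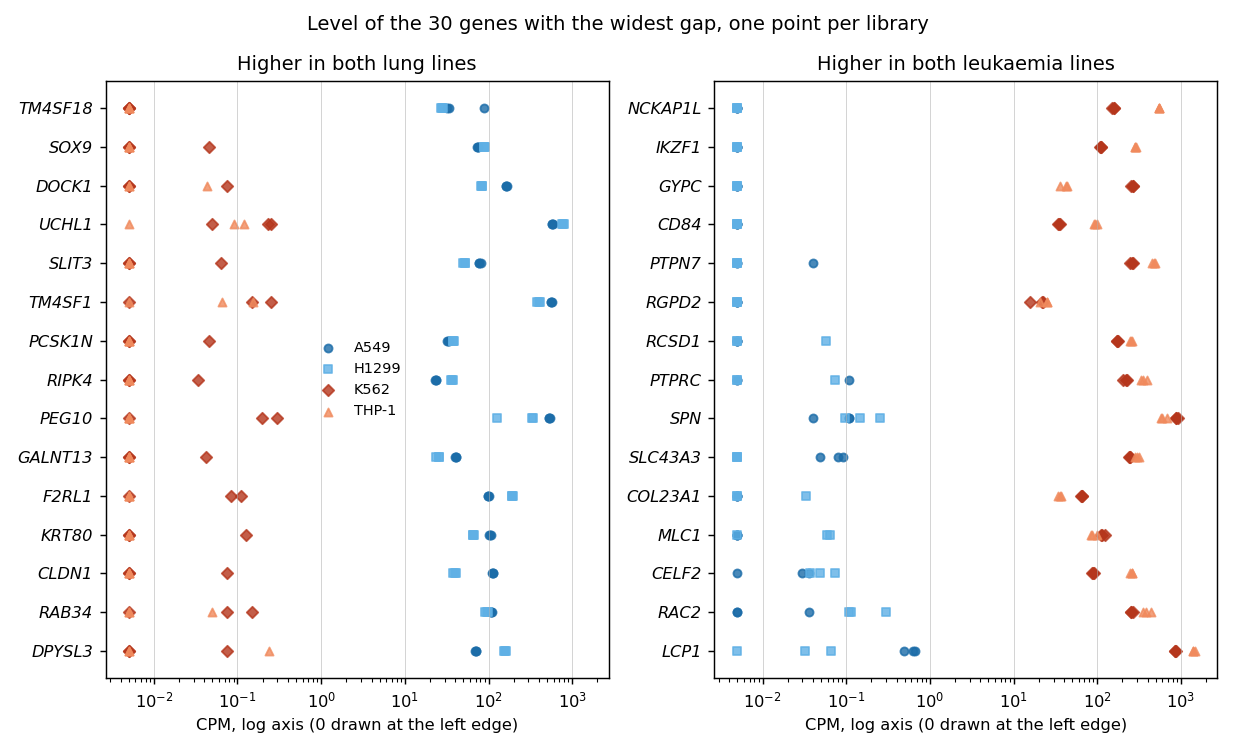
CPM on a log axis (x) of the 15 genes per direction with the widest gap and at least 20 CPM in both high lines (y), with 1 point per library labelled control and values of 0 at the left edge. The high lines lie above 10 CPM and the low lines below 1 CPM for all 30 genes.

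Higher in both leukaemia lines. Among genes with at least 20 CPM in both leukaemia lines, the 15 widest gaps included those of NCKAP1L, IKZF1 and PTPRC. NCKAP1L, the blood form of a subunit of the WAVE complex that drives branched actin, was at 149.1, 350.1 and 553.6 CPM (lowest, median and highest of 6 leukaemia libraries) and at 0 in all 6 lung libraries, at least 1342-fold higher (adjusted p = 7.18e-13). IKZF1, the zinc finger factor Ikaros, was at 108.6, 196.2 and 292.4 CPM against 0 in every lung library, at least 957.5-fold (adjusted p = 9.03e-13). PTPRC, which encodes CD45, was at 200.7, 280.2 and 391.0 CPM against 0, 0 and 0.107 CPM, at least 1867-fold (adjusted p = 1.54e-10). K562 and THP-1 differed from each other by 3.55-fold or less for these genes.

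SPN, the leukocyte sialomucin CD43, was at 577.3, 773.8 and 921.8 CPM against 0.0405, 0.107 and 0.256 CPM, and its nearest lines differed 3720-fold. LCP1, the leukocyte plastin that bundles actin, was at 840.4, 1124 and 1455 CPM against 0, 0.281 and 0.663 CPM, a 1430-fold difference of the nearest lines. PTPN7, a tyrosine phosphatase of blood cells that acts on MAP kinases, was at 248.2, 357.4 and 493.9 CPM against 0, 0 and 0.0405 CPM, at least 2239-fold.

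Among the rest, RAC2, the Rac GTPase of blood cells, differed 1489-fold between the nearest lines. GYPC, a glycophorin that anchors the red cell skeleton, and CD84, a receptor of the SLAM family, were at 0 in all lung libraries and at least 352.5-fold and 303.5-fold higher. RCSD1, which binds an actin capping protein, the nucleobase transporter gene SLC43A3 and CELF2, an RNA-binding splicing regulator, were at least 1511-fold, 2115-fold and 771.2-fold higher. The group also held genes better known from other tissues. COL23A1, a transmembrane collagen, was at 64.5 ± 0.81 CPM in K562 and 35.8 ± 1.67 CPM in THP-1, and MLC1, a membrane protein of astrocytes, at 116.8 ± 6.91 and 89.6 ± 7.77 CPM. RGPD2 was at 20.1 ± 3.84 and 23.6 ± 2.47 CPM and at 0 in the lung lines, but it belongs to a family of near-identical copies among which reads can be split, so its values are uncertain.

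Promoters of a few of these genes are shown so that their letters can be read beside the levels, for the relatives TM4SF18 and TM4SF1 of the lung side and for LCP1 and PTPRC of the leukaemia side. Each is 300 bases from RefSeq (GRCh38.p14), 250 before and 50 after the start, on the strand of the gene. They lie at chr3:149333587-149333886 and chr3:149377600-149377899 (both minus strand), chr13:46182128-46182427 (minus) and chr1:198638790-198639089 (plus). Capitals mark the motifs searched on both strands, the TEAD motif GGAATG (or its complement) and the PU.1 motif GAGGAAGT (or its complement).
TM4SF18: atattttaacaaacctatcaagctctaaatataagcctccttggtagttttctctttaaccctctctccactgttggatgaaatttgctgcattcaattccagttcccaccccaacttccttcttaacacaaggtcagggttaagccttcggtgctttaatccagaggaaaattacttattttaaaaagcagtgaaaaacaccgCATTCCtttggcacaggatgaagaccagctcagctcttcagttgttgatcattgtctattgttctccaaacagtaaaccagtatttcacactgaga
TM4SF1: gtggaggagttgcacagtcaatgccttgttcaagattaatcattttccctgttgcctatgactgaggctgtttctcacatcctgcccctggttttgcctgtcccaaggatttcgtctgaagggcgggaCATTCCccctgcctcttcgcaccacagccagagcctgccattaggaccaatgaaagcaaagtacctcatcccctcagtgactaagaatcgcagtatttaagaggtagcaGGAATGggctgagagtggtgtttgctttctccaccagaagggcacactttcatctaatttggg
LCP1: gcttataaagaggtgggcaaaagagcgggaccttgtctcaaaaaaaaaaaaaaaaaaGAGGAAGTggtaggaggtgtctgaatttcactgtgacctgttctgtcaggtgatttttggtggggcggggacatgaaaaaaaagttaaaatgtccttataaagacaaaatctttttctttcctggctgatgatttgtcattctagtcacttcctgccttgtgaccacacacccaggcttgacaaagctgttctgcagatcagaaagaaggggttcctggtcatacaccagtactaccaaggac
PTPRC: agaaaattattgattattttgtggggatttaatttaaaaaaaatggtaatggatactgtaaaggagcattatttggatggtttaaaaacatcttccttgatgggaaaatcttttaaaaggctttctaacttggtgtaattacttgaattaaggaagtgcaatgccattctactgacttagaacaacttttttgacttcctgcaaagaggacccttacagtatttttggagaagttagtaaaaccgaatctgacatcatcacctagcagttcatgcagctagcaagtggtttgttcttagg

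The TM4SF18 window holds 1 TEAD motif, starting 46 bases before the start, and the TM4SF1 window 2, starting 122 and 13 bases before it. The LCP1 window holds the PU.1 motif 193 bases before the start, and in the PTPRC window none of the 5 motifs searched was found. The other motifs searched were those of AP-1 (TGANTCA), of GATA factors (AGATAA) and of E2F (TTTGGCGC). The windows shown are examples. On the lung side DOCK1 and F2RL1 also held TEAD, UCHL1 GATA, and PCSK1N and RAB34 AP-1. SLIT3, GALNT13, CLDN1 and DPYSL3 held none of the 5. On the leukaemia side CELF2 held TEAD and PTPN7 GATA, while IKZF1, GYPC, RCSD1, COL23A1 and MLC1 held none. Shares of the 5 motifs over all separating genes with a promoter in the table are given without a test. TEAD was in 13.0% of 1116 promoters of lung genes and 12.7% of 503 of leukaemia genes, against 11.04% of 13063 promoters of genes tested and 14.0% of all 27305 promoters of that length. AP-1 was in 6.99%, 5.17%, 5.07% and 7.76% in the same order, GATA in 5.38%, 8.75%, 5.89% and 10.5%, PU.1 in 2.24%, 4.17%, 2.48% and 2.54%, and E2F in 0.448%, 0.994%, 1.00% and 0.659%. CG pairs had a median of 16 per window in promoters of leukaemia genes, against 23 for lung genes and 25 for genes tested. Over all 27305 promoters the median was 14, below that of the leukaemia genes. A match describes letters and no site in use.

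Adhesion and matrix genes of the lung lines. Of the 32 gene lists, matrix was the one most often higher in lung. The lists were chosen with earlier results of these data known, so this rank and the list shares below are descriptions. All 45 tested basement membrane and matrix genes were called higher in lung, beside 42.2% of all genes, and 25 separated the sides, against 8.91%. The list does not hold the collagens COL23A1 and COL1A2, which separated for leukaemia, so this share depends on which genes were listed. The median log2 difference of the 45 was 4.23 (4.16 with levels under the floor at the floor). COL17A1, the hemidesmosome collagen, was at 2.18 to 4.70 CPM in lung libraries and 0 in all leukaemia libraries, at least 21.1-fold. LOXL2, which crosslinks collagen, was 108.7-fold higher, at 154.4 ± 3.26 CPM in A549 and 193.3 ± 4.22 CPM in H1299 against 1.42 ± 0.39 CPM in K562 and 0.305 ± 0.11 CPM in THP-1.

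Integrins and focal adhesion genes were called higher in lung for 34 of 46 tested members and lower for 9, beside 42.2% and 37.0% of all genes. Of these members 21 separated the sides, all higher in lung, against 8.91% of all genes. ITGA3, the alpha subunit of a laminin receptor, was at 484.3, 784.7 and 1072 CPM in lung libraries against 0.583, 1.25 and 2.50 CPM in leukaemia libraries, a 240.0-fold difference of the nearest lines. All 6 lung libraries lay far above all 6 leukaemia libraries for this gene. Adaptors of the adhesion site were of both kinds. PARVA, a partner of ILK, separated for lung, 3.47-fold between the nearest lines, while ILK and TLN1 did not separate. ILK, a pseudokinase of the adhesion core, was at 88.2 ± 4.4, 108.6 ± 2.25, 108.6 ± 2.40 and 93.1 ± 4.45 CPM in A549, H1299, K562 and THP-1 (adjusted p = 0.297), and TLN1, which activates integrins, at 483.3 ± 6.16, 364.5 ± 11.3, 535.3 ± 29.3 and 642.6 ± 15.6 CPM. Both were named after their values were seen.

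In the Hippo and YAP list 27 of 34 tested genes were called higher in lung and 4 lower, beside 42.2% and 37.0% of all genes. For lung 16 separated, against 8.91% of all genes. YAP1 itself was at 86.3, 133.7 and 163.2 CPM in lung libraries and 0, 0.974 and 2.92 CPM in leukaemia libraries, 47.2-fold, and WWTR1, which encodes TAZ, 86.1-fold. Of the targets, ANKRD1 was at least 94.9-fold, CTGF 22.4-fold and CYR61 5.19-fold higher between the nearest lines. TEAD1, a DNA-binding partner, did not separate, being at 547.0 ± 1.62 CPM in A549 but 50.2 ± 1.79 CPM in H1299, next to 59.6 ± 0.90 CPM in K562. Caveolae followed the same side, with CAV1 at 266.7 to 451.1 CPM in lung libraries and at most 3.05 CPM in leukaemia libraries, and 3 of 10 members separating.

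Epithelial identity separated the sides less completely. Of 42 junction genes 36 were called higher in lung and 5 lower, beside 42.2% and 37.0% of all genes. For lung 14 separated and for leukaemia 3, against 8.91% and 4.10% of all genes. PATJ, a polarity scaffold, was at least 125.2-fold higher in lung, and DSP, which encodes desmoplakin, 46.9-fold. The claudin CLDN7 and the desmocollin DSC2 were among the 3 that separated for leukaemia. Keratins were called higher in lung for 10 of 17 and lower for none, 5 separating. KRT18 was at 4340 ± 78.1 CPM in A549, 991.1 ± 26.4 CPM in H1299, 242.1 ± 8.69 CPM in K562 and 0.0940 ± 0.08 CPM in THP-1. Its partner KRT8, at 498.8 ± 6.18 CPM in H1299 and 308.2 ± 15.5 CPM in K562, did not reach 2-fold.

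EPCAM, an epithelial adhesion molecule, was highest in K562 at 38.96 ± 3.95 CPM, against 7.09 ± 0.29 CPM in A549, 0.304 ± 0.13 CPM in H1299 and 0 in THP-1. CDH1, the epithelial cadherin, was at 114.2 ± 0.87 CPM in A549 and at most 0.148 CPM in every leukaemia library, with 0.0352 ± 0.03 CPM in H1299. EPCAM, CDH1, KRT8 and YAP1 were chosen after their values were seen. Of 29 epithelial transcription factors 6 separated for lung, against 8.91% of all genes, among them SOX2, at least 28.8-fold, and ID4, at least 27.3-fold. The factor NKX2-1 of lung and thyroid also passed, but at 0.139 ± 0.09 CPM in A549 and 0.241 ± 0.08 CPM in H1299, near the floor.

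Growth and contractile genes showed the same side with more exceptions. Growth factor receptor kinases were called higher in lung for 25 of 37 and lower for 10, beside 42.2% and 37.0% of all genes. Of the 37 kinases 11 separated for lung, against 8.91% of all genes. The same shares of all genes stand beside the lists that follow here. EPHA2, an ephrin receptor, was at 140.3 to 215.3 CPM against 0.139 to 0.978 CPM, 207.7-fold, MET, the receptor of hepatocyte growth factor, 16.9-fold and AXL, a receptor of GAS6, 13.4-fold. LTK, an ALK relative, separated for leukaemia at 9.39 ± 0.68 CPM in K562 and 4.11 ± 0.11 CPM in THP-1, 24.95-fold. Of 41 contractile actin genes 30 were called higher in lung and 9 lower, 12 separating, with CALD1, an actin-binding inhibitor of myosin, 240.4-fold and the tropomyosin TPM1 10.3-fold higher. Mesenchymal switch genes gave 5 separating for lung of 16, and ZEB2 for leukaemia, at 74.0 ± 14.7 CPM in K562 and 560.2 ± 10.3 CPM in THP-1. Vimentin (VIM), chosen after its values were seen, did not separate, at 1010 ± 4.56, 7746 ± 224.8, 1734 ± 31.4 and 171.5 ± 7.30 CPM in A549, H1299, K562 and THP-1. Plasminogen and matrix protease genes had 9 of 29 separating for lung. TGF-beta and BMP genes had 6 of 36 for lung, among them the ligand TGFB2 at 168.9 ± 1.68 CPM in A549 and 48.1 ± 3.71 CPM in H1299 against 0.502 ± 0.07 and 0.425 ± 0.14 CPM in K562 and THP-1, and the receptor ACVRL1 for leukaemia, at least 20.9-fold.

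Surface, transcription and signalling genes of the leukaemia lines. Of 43 tested pan-blood surface genes 35 were called higher in leukaemia and 6 higher in lung, beside 37.0% and 42.2% of all genes. Of the 43 genes 25 separated for leukaemia, against 4.10% of all genes, and 1 for lung, the tetraspanin TSPAN33, against 8.91%. The median log2 difference was -6.33, or -4.76 with levels under the floor at the floor. LAPTM5, a lysosomal protein of blood cells, was at 300.6 ± 9.97 CPM in K562 and 1106 ± 39.3 CPM in THP-1 against 0.212 ± 0.09 and 0.743 ± 0.16 CPM in A549 and H1299, 404.8-fold. CD53, a tetraspanin, was 763.3-fold and SELPLG, the ligand of P-selectin, 262.0-fold higher. CD52, a small anchored glycopeptide, was at 0 in all lung libraries and at least 100.5-fold higher.

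Of 49 blood transcription factors 33 were called higher in leukaemia and 8 higher in lung, beside 37.0% and 42.2% of all genes. For leukaemia 15 separated, against 4.10% of all genes. MYB, needed in blood progenitors, was at 334.6 ± 3.4 CPM in K562 and 588.8 ± 22.1 CPM in THP-1 against 0.828 ± 0.27 CPM in A549 and 2.74 ± 0.18 CPM in H1299, 122.1-fold. SPI1, which encodes PU.1 of myeloid cells, was 170.7-fold and LMO2, a bridging factor of early blood cells, 106.8-fold higher. BATF, an AP-1 factor, was at least 28.9-fold higher and at 0 in the lung lines. GATA1, the erythroid factor, was at 220.7 ± 1.25 CPM in K562 and 0.105 ± 0.15 CPM in THP-1, and RUNX1 was at 35.4 ± 1.22 and 51.2 ± 3.14 CPM in the lung lines beside 46.4 ± 1.35 CPM in K562. KLF2 went the other way, at 17.4 ± 0.81 CPM in A549 and 103.3 ± 3.96 CPM in H1299 against 0.557 ± 0.14 and 4.24 ± 0.34 CPM in K562 and THP-1.

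Blood kinases, phosphatases and adaptors were called higher in leukaemia for 37 of 49 and higher in lung for 4, beside 37.0% and 42.2% of all genes. In the same order 22 and 1 separated, against 4.10% and 8.91% of all genes. BTK, the kinase of B cells and myeloid cells, was at 109.1 ± 4.28 CPM in K562 and 139.0 ± 17.7 CPM in THP-1, and no lung library exceeded 0.175 CPM, a 922.0-fold difference. PRKCB, a protein kinase C, was 276.2-fold, LCP2, the adaptor SLP-76, 184.8-fold and PLCB2, a phospholipase of chemoattractant signalling, at least 211.3-fold higher. JAK3, best known from lymphoid cytokine receptors, was the lung exception, at 3.79 ± 0.39 CPM in A549 and 6.65 ± 0.51 CPM in H1299 against 0.306 ± 0.04 and 0.0645 ± 0.08 CPM. SYK, a kinase upstream of BTK, did not separate, being at 325.5 ± 12.4 CPM in THP-1 but 0.217 ± 0.11 CPM in K562.

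Blood cytokine receptors had 8 of 35 separating for leukaemia, against 4.10% of all genes. KIT, the receptor of stem cell factor, was at 35.6, 37.9 and 39.7 CPM in leukaemia libraries and at most 0.105 CPM in lung libraries, at least 323.4-fold, and K562 and THP-1 differed by 1.03-fold. CSF3R, the receptor of G-CSF, was at least 54.1-fold higher. The death receptors FAS and TNFRSF1A of the same list separated for lung, 12.9-fold and 5.18-fold. TNFRSF1A was at 384.8 to 411.7 CPM in lung libraries and 58.3 to 78.3 CPM in leukaemia libraries, with no overlap of the sides. Of 23 granule and secreted myeloid genes 6 separated for leukaemia, with LYZ, lysozyme, 122.6-fold, and 1 for lung, the protease inhibitor gene SERPINE2, 6.12-fold. Of 25 monocyte genes 13 separated for leukaemia, with FCGR2A, an Fc receptor, at least 292.6-fold. Of 10 monocyte markers 6 reached 1 CPM in K562, where the marker list had medians of 14.6 to 14.9 CPM. CD14, CSF1R, CD4 and FCGR1A were below 1 CPM there, at 0.144 ± 0.14, 0.0611 ± 0.06, 0.471 ± 0.02 and 0.571 ± 0.12 CPM.

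Nucleic acid sensing genes had 9 of 38 separating for leukaemia and 1 for lung, against 4.10% and 8.91% of all genes. BST2, which tethers budding viruses, was at 147.4 ± 1.68 CPM in K562 and 128.3 ± 6.33 CPM in THP-1 against 0.0677 ± 0.07 CPM in A549 and 3.68 ± 0.13 CPM in H1299, 34.9-fold. TMEM173, which encodes STING, was 3.52-fold and the deaminase gene APOBEC3G 9.90-fold higher in leukaemia. TLR3, the receptor of double-stranded RNA, was higher in lung at 2.46 ± 0.13 and 1.59 ± 0.17 CPM, at least 11.8-fold. Libraries without lentivirus were not analysed here, and the part of the vector in these levels was not tested.

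**Figure D3:**
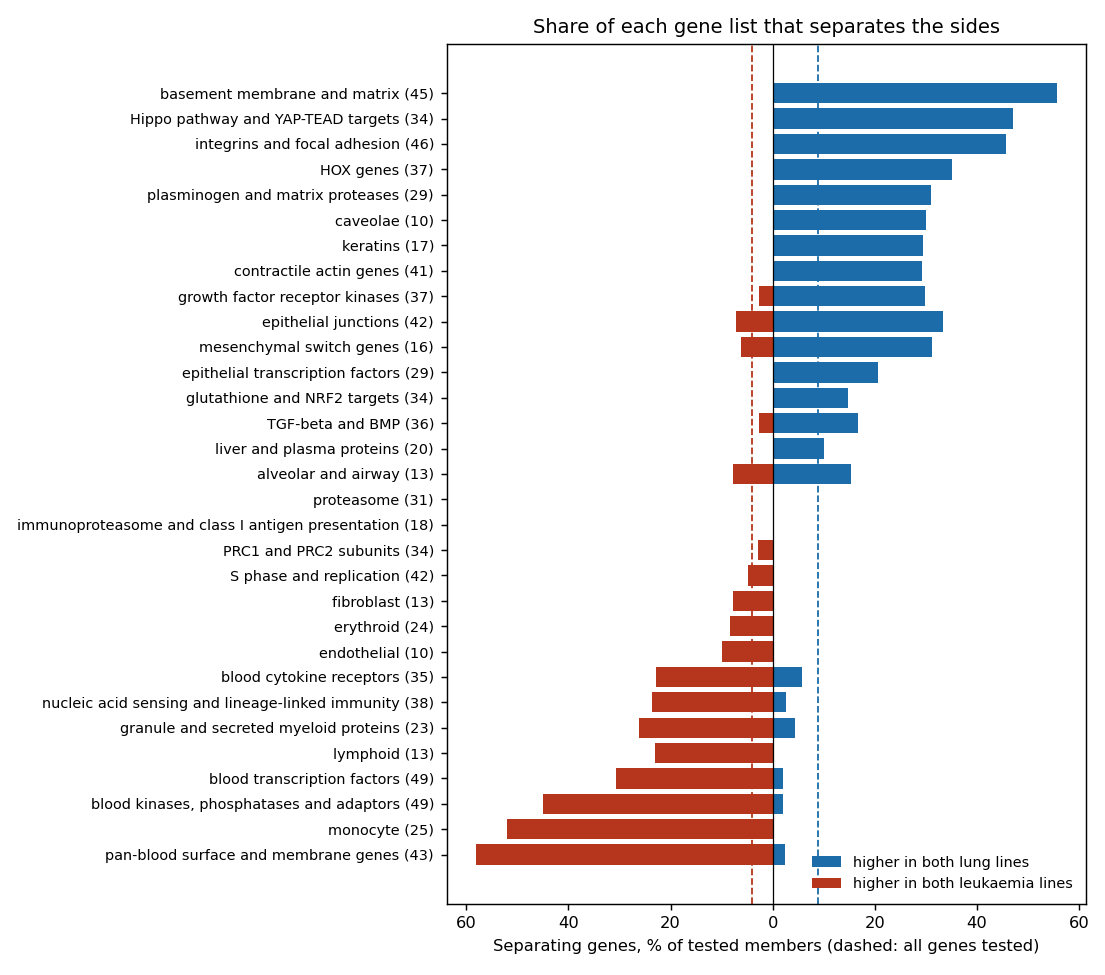
Share of tested members of the gene lists (y, 1 list left out, number tested in brackets) that separated the sides (x, percent), to the right for genes higher in both lung lines and to the left for both leukaemia lines. Dashed lines mark the shares of all genes tested, 8.91% and 4.10%, and matrix, YAP and integrin lists lie farthest right, surface and monocyte lists farthest left.

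Relatives that trade places. Blood cells often use their own member of an actin or signalling family. In 36 pairs of such a member with a relative used in other cells, levels were compared in FPKM, which are per transcript length. Of 35 blood members 21 separated for leukaemia, against 4.10% of all genes, and 0 for lung. Among these 21, HCLS1, INPP5D, GNA15 and SASH3 had low means in K562, 0.635, 0.938, 0.254 and 0.340 FPKM. In THP-1 they were at 160.0, 54.1, 14.3 and 15.5 FPKM. Of 36 relatives 10 separated for lung, against 8.91%, and 0 for leukaemia. The pairs were chosen for a member known from blood cells and with earlier results known, so these shares are descriptions. In 5 pairs, FERMT3 being in those with FERMT2 and with FERMT1, both members separated, in opposite directions. The plastins were such a pair, with LCP1 at 228.9 ± 2.43 FPKM in K562 and 343.2 ± 8.86 FPKM in THP-1 against 0.145 ± 0.02 and 0.00792 ± 0.01 FPKM in A549 and H1299, and PLS3 at 109.7 ± 2.50 and 38.1 ± 0.84 FPKM in the lung lines against 0.0317 ± 0.03 and 9.18 ± 0.94 FPKM in K562 and THP-1.

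Kindlins, which activate integrins, did the same. FERMT3 was at 91.96 ± 5.94 FPKM in K562 and 51.8 ± 2.80 FPKM in THP-1 against 0.151 ± 0.05 and 0.419 ± 0.11 FPKM in A549 and H1299. FERMT2 was at 21.8 ± 0.89 and 18.97 ± 0.28 FPKM in A549 and H1299 against 0.484 ± 0.09 and 0.304 ± 0.12 FPKM, and FERMT1 at 8.39 ± 0.41 and 2.30 ± 0.12 FPKM against 0.00450 ± 0.005 and 0.665 ± 0.13 FPKM. For the Rac exchange factors, DOCK1 was at 22.1 ± 0.33 and 12.01 ± 0.08 FPKM in the lung lines and at most 0.00360 ± 0.006 FPKM in the others. Its relative DOCK2 was at 73.5 ± 1.49 FPKM in THP-1 but only 1.63 ± 0.14 FPKM in K562, against 0.246 ± 0.04 and 0.624 ± 0.07 FPKM in A549 and H1299, so K562 was low in both. WAS and WASL, which switch on branched actin, also separated in opposite directions, with WAS at 3.30 ± 0.16 FPKM in K562 and 64.6 ± 7.16 FPKM in THP-1 and WASL at 19.1 ± 0.95 and 15.6 ± 0.55 FPKM in A549 and H1299. WASL was at 7.27 ± 0.84 FPKM in K562, above WAS there, and at 2.65 ± 0.14 FPKM in THP-1.

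In other pairs the relative was present on both sides. RAC1 was at 151.3 ± 2.82, 206.1 ± 2.73, 123.3 ± 5.03 and 159.2 ± 6.43 FPKM in A549, H1299, K562 and THP-1, while RAC2 was at 173.0 ± 7.11 FPKM in K562 and 239.2 ± 26.7 FPKM in THP-1 and at most 0.111 ± 0.07 FPKM in a lung line. GMFB, which prunes actin branches, was at 23.1 ± 0.67, 11.7 ± 0.29, 11.7 ± 0.16 and 21.9 ± 2.17 FPKM, with GMFG at 43.2 ± 2.79 and 144.6 ± 5.57 FPKM in K562 and THP-1 and at most 0.397 ± 0.12 FPKM in a lung line. NCKAP1 was at 42.5 ± 3.84 FPKM in K562 beside 39.8 ± 1.47 FPKM of NCKAP1L, but at 0.176 ± 0.04 FPKM in THP-1, where NCKAP1L was at 128.3 ± 0.81 FPKM. CTTN and HCLS1, relatives that bind branched actin, divided K562 from THP-1. CTTN was at 50.5 ± 1.97 FPKM in K562 and 0.153 ± 0.07 FPKM in THP-1, and HCLS1 at 0.635 ± 0.03 and 160.0 ± 6.49 FPKM. The relatives of CORO1A and STAT5A, CORO1C and STAT3, varied widely in FPKM between libraries of 1 line, as with 50.6 ± 26.6 FPKM of CORO1C in K562.

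**Figure D4:**
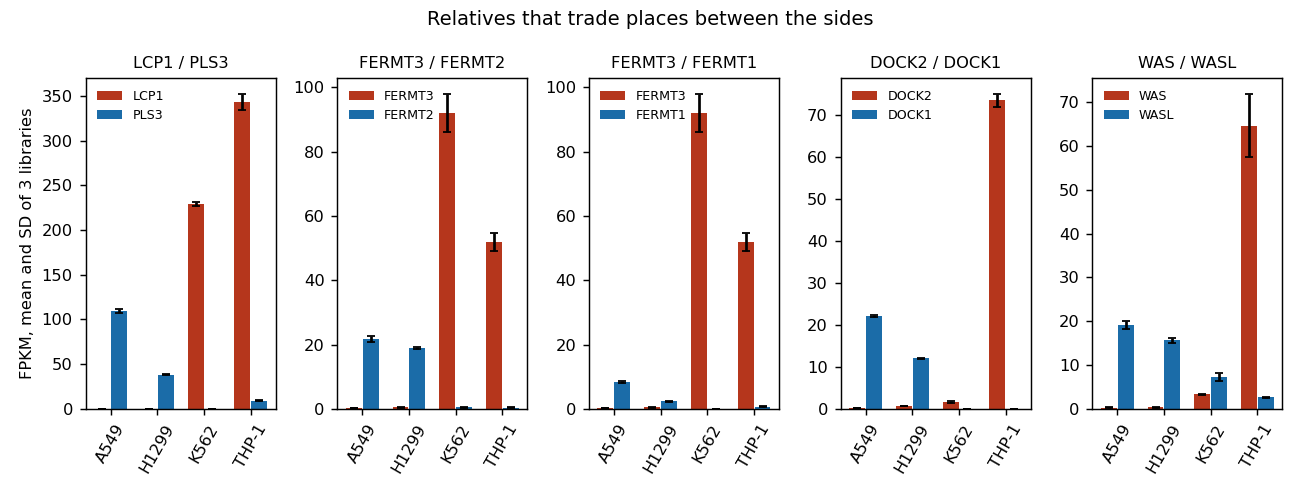
FPKM (y, bars are means and whiskers SD of 3 libraries labelled control) of both members of the 5 pairs that separated in opposite directions, by line (x). Red bars, the blood members, stand over K562 and THP-1 and blue bars, the relatives, over A549 and H1299, with K562 low for DOCK2 and WAS.

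Chromatin, housekeeping and stress genes. Few Polycomb subunits divided along the sides. Of 34 tested 11 were called higher in lung and 17 higher in leukaemia, beside 42.2% and 37.0% of all genes, and 1 separated, MTF2, an accessory subunit of PRC2, 2.01-fold higher in leukaemia. EZH2, the methyltransferase, was at 69.2 ± 0.27 and 95.6 ± 1.15 CPM in A549 and H1299 and 187.9 ± 3.23 and 175.4 ± 4.49 CPM in K562 and THP-1, just short of 2-fold at a gap of -0.88. HOX genes, which Polycomb complexes are known to silence, did so more often. Of 37 tested, 31 were called higher in lung, 3 lower, and 13 separated, all for lung, against 8.91% of all genes. The calls for lung include HOXA10, which was higher in THP-1 than in both lung lines. The median log2 difference of the list was 4.51, or 2.76 with levels under the floor at the floor. HOXD9 was at 1.10 ± 0.26 CPM in A549 and 10.1 ± 0.74 CPM in H1299 and HOXD4 at 0.950 ± 0.33 and 0.864 ± 0.11 CPM, both at 0 in all leukaemia libraries. HOXA9 ran against the list's direction in THP-1, at 72.2 ± 1.29 CPM, with 17.1 ± 0.51 CPM in H1299, 0.858 ± 0.22 CPM in A549 and 0 in K562, and like EZH2 it was named after its values were seen.

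The proteasome had 16 of 31 called higher in lung and 9 in leukaemia, beside 42.2% and 37.0% of all genes, with 0 separating and a median log2 difference of 0.08. Immunoproteasome and class I genes also had 0 of 18 separating. Replication genes were called higher in leukaemia for 34 of 42, but by a median of only -0.54 on the log2 scale, and 2 separated, ORC1, a subunit of the origin complex, 3.62-fold and the E2F factor E2F8 2.38-fold. Glutathione and NRF2 targets were called higher in lung for 26 of 34, and 5 separated. AKR1B10, a reductase, was called higher in lung but did not separate, being at 5322 ± 39.5 CPM in A549, 0.661 ± 0.11 CPM in H1299, 0.602 ± 0.55 CPM in K562 and 0 in THP-1. AKR1B10 was named after its values were seen. Small lists of fibroblast, endothelial, lymphoid, erythroid and liver genes had 1 of 13, 1 of 10, 3 of 13, 2 of 24 and 2 of 20 members separating, the last for lung and the others for leukaemia, beside 8.91% and 4.10% of all genes. Counts of 1 or 2 members in lists of this size are not read further.

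Some genes outside the lists, also chosen after their values were seen, stood out by level. TXNIP, an inhibitor of thioredoxin and of glucose uptake, was at 377.2, 395.8 and 425.6 CPM in leukaemia libraries and 0.0365, 0.784 and 2.00 CPM in lung libraries, 230.2-fold. PRDX2, a peroxiredoxin abundant in red cells, was at 90.7, 175.7 and 265.9 CPM against 0, 0.0857 and 0.166 CPM, 695.9-fold. CD44, a hyaluronan receptor of both leukocytes and epithelia, was 4.33-fold higher in lung, at 10.4 ± 0.71 CPM in K562 and 118.1 ± 3.19 CPM in THP-1 against 784.3 ± 14.5 and 511.5 ± 15.5 CPM in A549 and H1299.

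Which transcript a gene used separated the sides in few genes. Among 21364 transcripts of 4989 genes with at least 5 TPM in every library, 13 (0.0609%) had a share of the gene's TPM at least 30 percentage points higher in all libraries of one side, 9 for lung and 4 for leukaemia, in 9 genes. WIPF1, whose protein binds WAS, was the widest. NM_003387 carried 76.1% to 96.4% of WIPF1 in leukaemia libraries and 0 to 4.17% in lung libraries, where NM_001077269 carried the rest. Gene totals of WIPF1 were 37.1 ± 1.09, 5.52 ± 0.20, 42.8 ± 0.61 and 61.6 ± 1.45 TPM in A549, H1299, K562 and THP-1, so H1299 was close to the 5 TPM minimum. With a minimum of 10 TPM, 5 transcripts passed 30 points for lung and 0 for leukaemia. GSKIP, which binds GSK3, had 72.4% to 99.4% as NM_001271905 in leukaemia libraries and at most 3.34% in lung libraries.

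ABI1, a WAVE complex subunit, had 39.1% to 50.5% of its TPM as NM_001012752 in lung libraries and 0.674% to 5.40% in leukaemia libraries, with gene totals of 55.2 ± 2.62, 29.4 ± 1.10, 51.2 ± 1.18 and 55.2 ± 2.64 TPM in A549, H1299, K562 and THP-1. SHC1, an adaptor of receptor kinases, had 40.3% to 51.3% as NM_001130040 in lung libraries and 1.23% to 9.96% in leukaemia libraries. GSN, which encodes the actin-severing gelsolin, had 35.2% to 49.1% as NM_000177 against 0 to 4.53%. CPNE1, a copine, had 30.7% to 58.2% as NM_001198863 in lung libraries and 0 in leukaemia libraries. RTN2, a reticulon, AP3S1, an adaptor subunit of vesicles, and MYO18A, a myosin, were the others. RASSF1, a tumour suppressor gene with alternative starts, fell just under the limit at 28.4 points and was named after its values were seen. NM_170713 carried 98.9% to 100% of RASSF1 in lung libraries and 49.4% to 70.6% in leukaemia libraries. NM_007182 carried 18.5% to 35.6% of RASSF1 in leukaemia libraries and was at 0 in all lung libraries. Transcript shares rest on the authors' assignment of reads to transcripts.

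In the libraries labelled knockdown 6 of the 13 transcripts again passed 30 points, 2 each of WIPF1, GSKIP and RTN2. None of these 6 met the 10 TPM minimum in the libraries labelled control. Mean gene totals there were 5.52 TPM for WIPF1 in H1299, 7.34 TPM for GSKIP in THP-1 and 9.5 TPM for RTN2 in A549. The named transcripts of ABI1, CPNE1, SHC1 and GSN fell below 30 points, with gaps of 29.1, 27.8, 23.1 and 16.2 points in the libraries labelled knockdown. Both WIPF1 transcripts had gaps of 55.1 points and those of GSKIP 70.4 and 47.2 points. The gap of NM_001284 of AP3S1 fell to 0.549 points, and the libraries overlapped for NM_001346768 of MYO18A.

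**Figure D5:**
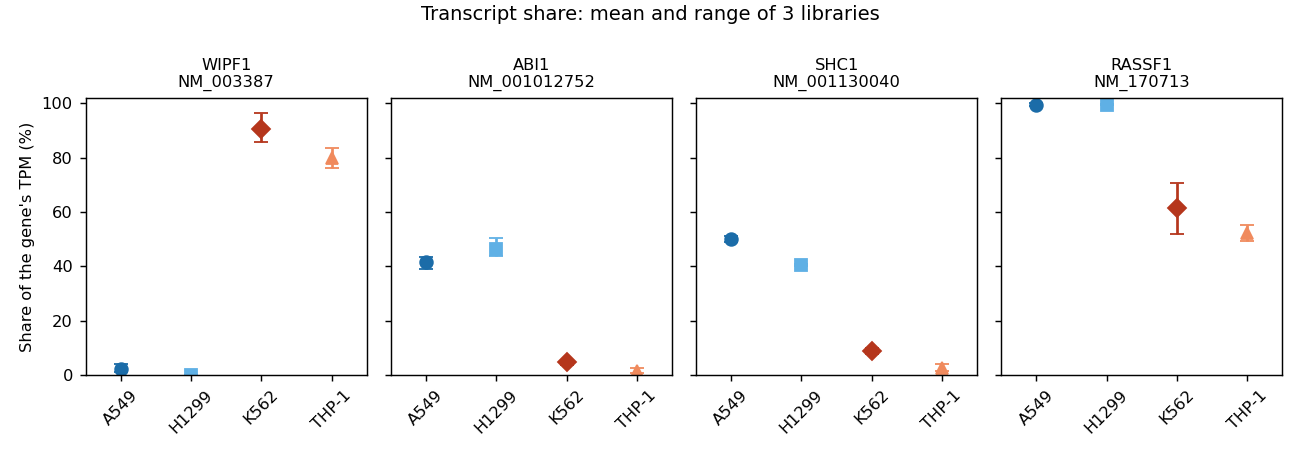
Share of a gene's TPM carried by the named transcript (y, percent; points are means and whiskers the range of 3 libraries labelled control) by line (x). For WIPF1 the leukaemia lines lie above 76% and the lung lines below 5%, and for NM_001012752 of ABI1, NM_001130040 of SHC1 and NM_170713 of RASSF1 the lung lines lie above the leukaemia lines.

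Some separating genes stood next to each other. In the RefSeq order of the genes tested, 480 of 1450 placed lung genes (33.1%) and 147 of 669 leukaemia genes (22.0%) had a neighbour that separated the same way. On the leukaemia side MS4A3, MS4A2, MS4A6A, MS4A4E and MS4A4A, membrane proteins of blood cells, formed a run of 5, and SLAMF6, CD84, SLAMF1 and CD48, receptors of the SLAM family, a run of 4. The granule protein genes AZU1 and PRTN3 stood together, as did EVI2A and EVI2B. On the lung side HOXD9, HOXD8, HOXD4, HOXD3 and HOXD1 formed a run of 5, and CLDN3 and CLDN4 lay in a run of 4. A run of 11 protocadherin genes from PCDHA4 to PCDHAC1 is uncertain, since these share their last exons. Whether reads cross from a gene into its neighbour was not tested, and no share expected by chance was computed.

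The same lines, in the libraries labelled knockdown, gave 1498 separating genes for lung (9.14%) and 707 for leukaemia (4.31%). Of the 1453 lung genes 1120 separated the same way there, and of the 669 leukaemia genes 449. By the side contrast alone 1429 and 652 were called in the same direction. This repeats libraries and not lines. COL1A2, a fibroblast collagen, was the only separating gene called in the opposite direction there. Its level in the libraries labelled control was 5.20, 4.06 and 5.65 CPM in K562, 1.34, 0 and 0.771 CPM in THP-1, 0, 0.0507 and 0 CPM in A549 and 0, 0.137 and 0.0742 CPM in H1299. In the libraries labelled knockdown its mean was 60.6 CPM in A549 and 1.27, 8.65 and 1.26 CPM in H1299, K562 and THP-1, a log2 difference of 1.42 (adjusted p = 0.0147). All 30 genes of the widest gaps separated the same way in both sets.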

How the data were processed

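RNA of 4 cell lines was measured, with 3 libraries labelled control and 3 labelled knockdown each, grouped by the genotype label. Per the labels' protocols, libraries came from a stranded total RNA kit and were sequenced in pairs. The authors deposited gene tables of estimated counts and of FPKM and a transcript table of TPM. The submitters' processing notes name HISAT2, StringTie and hg19. No source here says if counting used strand, so overlapping and antisense genes cannot be told apart. Of low deposited estimated counts 70.4% lie at a multiple of 4 or 1 above, which many whole numbers do in any case. The floor of 12 counts assumes 3 fragments of 4 counts. It covers counting error only.

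Estimated counts of 19475 genes were rounded, filtered (filterByExpr, 16305 genes kept), TMM-scaled and fitted with 4 line means in edgeR 4.0.16 (R 4.3.3, robust quasi-likelihood F test, Benjamini-Hochberg over all genes tested, adjusted p under 0.05). The fit was tested on simulated data with known folds between the sides and no differences between lines of a side. It therefore does not cover the differences within sides seen here. A fold between the nearest lines is the ratio of mean CPM of the lower line of the high side to the higher line of the low side, with the floor in place of a lower mean ("at least"). Alternatives were DESeq2 1.42.0, limma 3.58.1 on log2 of deposited FPKM plus 1 or 0.1, other scalings, filters and limits, a replicate block and leaving out each library. Chi-square tests found no replicate that repeated another. RefSeq tables supplied gene order and promoters (first listed start), matched by symbol for 16251 and 13063 of the genes tested.

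Named were CBX7, the 15 widest gaps per direction with at least 20 CPM in both high lines (leaving out unnamed loci, open reading frames, antisense and small RNAs), 2 per list and direction, the pairs and the 10 widest transcripts. Other genes named were chosen after their values were seen, most of them from the 32 gene lists. Members, lists, pairs and tests were chosen with earlier results of these data known, so their shares beside those of all genes are descriptions. Results on some items are not reported here.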

Additional observations from a re-analysis of the deposited data

How the results depend on the processing

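Counts of separating genes stayed within 1.5 times under DESeq2, other scalings, filters, counts divided by 4, a fit of all 24 libraries, limma with a pseudocount of 0.1, an adjusted p under 0.01 and the libraries labelled knockdown. With limma on log2(FPKM + 1) they were 664 for lung and 338 for leukaemia, with or without a filter on low FPKM, of which 663 and 327 were among the 1453 and 669. Without a minimum fold they were 2524 and 2005, and with a 4-fold minimum 361 for leukaemia. Transcripts past the limit were 17 and 11 at 20 points, and 5 and 0 in genes of at least 10 TPM.

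Leaving out each library gave 6749 to 6943 and 5821 to 6007 calls on the side contrast and 1382 to 1430 and 636 to 670 separating genes. The replicate block gave 6768 and 5921 calls and 1359 and 642 separating genes. Deviations from line means correlated at -0.111 to 0.0966 for same-numbered libraries and at -0.0778 to 0.08 for others. With 3 libraries per line these values cannot decide whether the numbers mark pairs.

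In the libraries labelled knockdown the sign turned for CBX7 (1.91), COL1A2 (1.42), PTPN11 (0.41), PIK3CA (0.25) and PTPRR (-3.68). On FPKM, PTPRR gave -0.82 with a pseudocount of 1, filtered or not, and -1.55 with 0.1, and EPCAM -1.04 and -0.57. The cause of these turns was not tested. Among counts of list members under the alternatives, 129 moved by over 1.5 times and 978 did not. Which lists moved is not given here, so a list count above may depend on the processing. Of the values of named genes under alternatives, 4094 kept direction and side of the threshold, 21 lost and 21 gained the call, and 11 turned. Upper-quartile scaling moved the median of all genes by 0.06 and FPKM + 1 by -0.09 on the log2 scale. The fragments behind the counts are unknown, so differences of genes near the floor were not resolved.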
